A study of Arabidopsis thaliana with 6 samples.

Results

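Promoter regions that belong to 1 gene were examined for occupancy by SOC1, a MADS-domain activator of flowering in Arabidopsis thaliana. A region was included where its centre overlapped no annotated gene and where exactly 1 of its sides held a gene that started within 1000 bp and was transcribed away from the region. The choice used position and strand only, not read counts, and 8551 of the 24032 regions in the deposited table met it. The shoot apices came from plants of the soc1-2 mutant background. The tagged group carried SOC1p:gSOC1-GFP (line 7), a genomic SOC1 copy under its own promoter and fused to GFP, and the control group carried SOC1p:gSOC1 (line 9), the same kind of copy without GFP. Each construct was thus represented by 1 line, and every plant carried the mutant allele and a transgenic SOC1 copy. Plants were grown for 15 short days and 3 long days and collected at zeitgeber time 4. An antibody against GFP was used for chromatin immunoprecipitation followed by sequencing (ChIP-seq), with 3 libraries of each group, so the untagged libraries measured the background of the procedure.

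Gene starts are preceded by the proximal promoter, the stretch where general transcription factors and many sequence-specific factors assemble. MADS-domain proteins such as SOC1 bind DNA as dimers at CArG boxes, and in the shoot apex they form a network that sets flowering time and then the identity of floral organs. Upstream sequence between a pair of divergent genes cannot be assigned to either of them by position, whereas a region before a single start can be assigned to that start, although the end of another gene may lie nearer.

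Listed reads summed to 663108, 183668 and 262776 for replicates 1, 2 and 3 of gSOC1-GFP, and to 396326, 41073 and 61963 without the tag. The median region of the set held 19, 6 and 10 tagged against 8, 1 and 2 untagged reads. No untagged read was counted at 27.3% of these regions in replicate 2, against 2.64% in replicate 1. Single regions are therefore measured with little precision in replicates 2 and 3, and sums over many regions are more reliable. The labels do not say whether libraries of a genotype came from separately grown plants. A p-value of the tests run here over these libraries therefore measures only how far these samples spread, which may be technical.

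As a whole, the single-gene proximal promoters took about the same share of reads with and without the GFP tag. They made up 35.6% of the regions and held 43.0%, 41.1% and 40.3% of the reads listed for gSOC1-GFP. Without the tag they held 44.8%, 40.5% and 41.0%. These values overlap, and replicate 1 was the highest of its group in both genotypes. The mean log2 ratio of tagged to untagged share was -0.02 ± 0.04 (SD, n = 3 pairs; exact two-sided permutation test over the 6 libraries, p = 0.7). Over the 4 such comparisons made, the Benjamini-Hochberg adjusted permutation p was 0.933, and 3 against 3 libraries allow no p below 0.1. Shares of a library add up to a whole, so more reads in some regions lower the share of all others by construction.

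**Figure D1:**
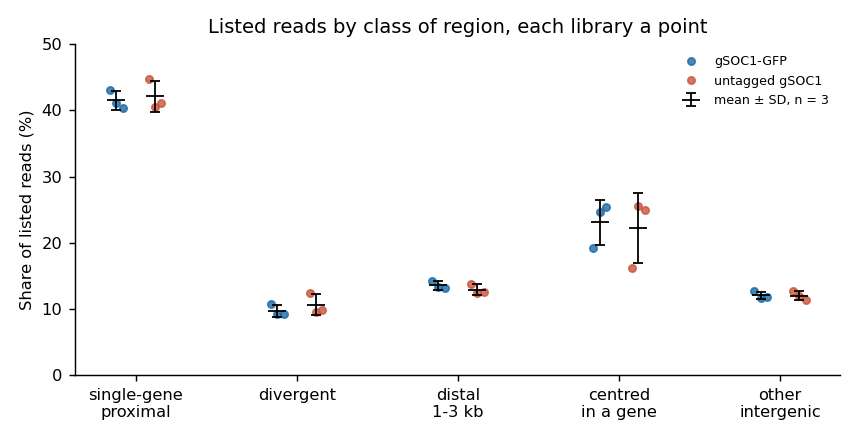
Share of each library's listed reads (y axis, %) in 5 classes of region by position; points are libraries and bars the mean ± SD of 3 libraries. Single-gene proximal promoters held 40.3% to 43.0% in the gSOC1-GFP and 40.5% to 44.8% in the untagged libraries, and the libraries of both genotypes overlapped in this class.

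The closest other classes of upstream region gave small differences. Regions between a pair of divergent starts, both within 1000 bp, had a log2 ratio of -0.12 ± 0.08 (SD, n = 3 pairs). The single-gene regions lay 0.10 ± 0.05 above them (higher in 3 of 3 pairs; exact two-sided permutation p = 0.4, adjusted 0.8). Distal promoter regions, whose nearest downstream start lay more than 1000 and up to 3000 bp away, had a log2 ratio of 0.07 ± 0.03. The single-gene regions lay below the distal regions in 3 of 3 pairs, at a difference of -0.09 ± 0.01 (exact two-sided permutation p = 0.1, the smallest possible, adjusted 0.4). No comparison of these classes passed the adjusted threshold, which a design of this size cannot pass.

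A small number of the promoters passed the authors' call for tagged over untagged reads. A region is referred to as called where the authors' false discovery rate (FDR) for tagged against untagged chromatin was below 0.05 in all 3 replicates. Each such FDR compared 1 tagged with 1 untagged library, so it measures no spread between libraries. Called were 108 of the 8551 promoters (1.26%), beside 1.12% of all regions in the table. The share of called promoters was thus near the background of the table. In single replicates the same FDR was passed by 942 promoters in replicate 1 (11.0%, beside 10.1% of all regions), 298 in replicate 2 (3.48%, beside 2.86%) and 318 in replicate 3 (3.72%, beside 3.16%). At least 2 replicates passed at 263 promoters (3.08%, beside 2.62%). The called promoters held 3.60%, 4.95% and 3.76% of the listed tagged reads and 0.649%, 0.711% and 0.736% of the listed untagged reads, and they had been called on this difference. The 25 best-ranked of them alone held 2.38% ± 0.48 (SD, n = 3) of the tagged and 0.177% ± 0.057 of the untagged reads. Without the called promoters, the log2 ratio of the remaining 8443 was -0.15 ± 0.01. Taking out promoters chosen for their tagged reads lowers this ratio by construction, so it does not show where the excess lay.

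Enrichment at single regions was measured as the difference in log2 read share within a replicate pair, after a prior count of 1, scaled to the size of the library, had been added. The called promoters ranged from 0.32 to 6.41 on this scale, with a median of 2.26 and a median SD over 3 pairs of 0.89. Of them, 16 lay above 4, 49 from 2 to 4, 34 from 1 to 2 and 9 below 1. The other promoters had a median of 0.18, beside 0.28 for all regions of the table. Scaled counts were higher in every tagged than in every untagged library at 101 of the 108 called promoters, which were chosen on these counts, and at 7.02% of the whole set, beside 8.34% of all regions. At 21 called promoters at least 1 untagged library held no read, and there the mean log2 enrichment depends on the prior count.

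In promoters selected without the replicate that was measured, the tagged excess was also seen. In replicate 1, the 116 promoters that passed in replicates 2 and 3 had log2 enrichments with a median of 2.37, and 96.6% were positive. In replicate 2, the 168 promoters that passed in replicates 1 and 3 had a median of 1.86, with 89.3% positive. In replicate 3, the 195 promoters that passed in replicates 1 and 2 had a median of 1.08, with 82.1% positive. All other promoters had medians of 0.18, 0.14 and 0.08 in replicates 1, 2 and 3. The regions of the table may themselves have been drawn up from all 3 replicates. Regions outside the set were not measured in this way, so the excess is not shown to be particular to these promoters.

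With the quasi-likelihood test of edgeR on all 24032 regions and Benjamini-Hochberg adjustment, no promoter of the set passed an adjusted p of 0.05 without a replicate block. An unadjusted p below 0.05, in either direction, was seen at 223 of the 8551 promoters, beside 762 of the 24032 regions. Both shares are below 0.05, the share that such a cut passes where no region differs. With the replicate number as a block, 33 promoters passed, all of them higher in gSOC1-GFP (0.386% of the set, beside 0.379% of all regions), and 32 of the 33 were called by the authors' FDR. DESeq2 without the block called 35 promoters of the 2753 that received an adjusted p (1.27%, beside 1.61% of such regions), and 29 of these were among the 33. The unblocked count was 35 without replicate 1, beside 86 of all 24032 regions. With a filter on a mean count of 10 it was 34 of 3714 promoters, beside 85 of 8083 regions. The blocked count was 75 with library totals and 21 without replicate 3, beside 211 and 69 of all regions.

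Listed regions crowded toward the gene start, and the called ones lay farther out at the median. Of all promoters, 2778 had their centre 0 to 100 bp from the start and 2043 at 101 to 200 bp. The number then declined to 899 at 201 to 300 bp and to 291 at 901 to 1000 bp. The median distance was 254.5 bp for the called and 161 bp for the other promoters. The called promoters numbered 21 in each of the 3 bins nearest to the start, which was 0.756%, 1.03% and 2.34% of the promoters in them. From 301 to 1000 bp it was 45 of 2831 (1.59%). The highest share was 3.06%, at 801 to 900 bp, from 10 called promoters of 327. With edgeR and the replicate block the shares were 0.216%, 0.294% and 0.779% in the nearest 3 bins and 0.495% from 301 to 1000 bp. The difference between bins was not tested.

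**Figure D2:**
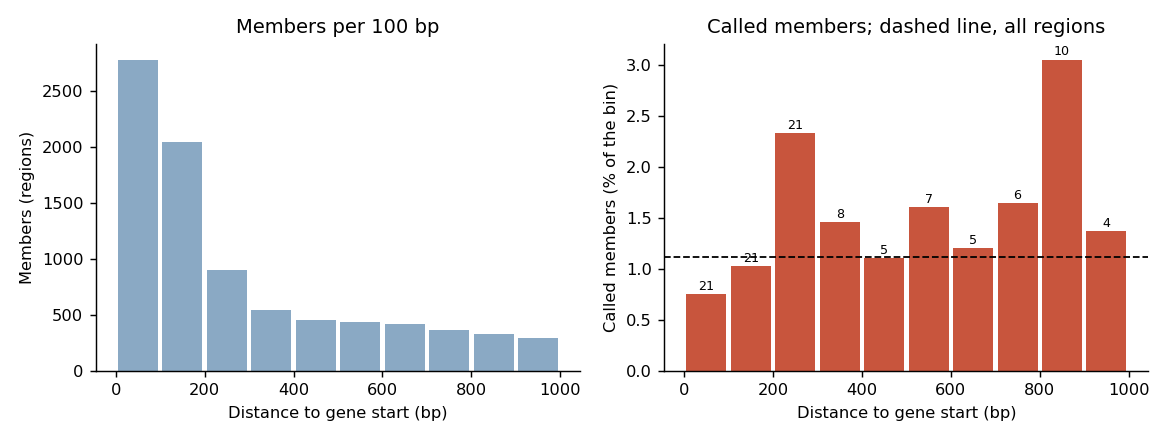
Left, number of promoter regions (y axis) by distance from region centre to gene start in bins of 100 bp (x axis, bp). Right, called promoters as a percentage of each bin with their number above the bar, and 1.12% of all regions as a dashed line: the nearest 2 bins lay below it, and the bin at 201 to 300 bp reached 2.34%.

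Summed over bins of 100 bp and scaled to column totals, the tagged libraries exceeded the untagged ones at 201 to 400 bp. Promoters at 201 to 300 bp held 5.51%, 5.68% and 5.14% of the tagged reads and 5.00%, 4.74% and 4.52% of the untagged reads. All tagged values lay above all untagged values, and the log2 ratio was 0.20 ± 0.06 (SD, n = 3 pairs), a 1.14-fold excess. At 301 to 400 bp the shares were 2.83%, 2.82% and 2.66% against 2.66%, 2.59% and 2.38%, a log2 ratio of 0.13 ± 0.03. Here the lowest tagged and the highest untagged values were level. Nearest to the start, at 0 to 100 bp, they were 12.2%, 12.6% and 12.7% against 12.9%, 12.9% and 13.8%. Each tagged value lay below each untagged value in that bin, with a log2 ratio of -0.08 ± 0.05. The bin at 101 to 200 bp was at -0.10 ± 0.05. Farther out the profile went from -0.02 ± 0.04 at 401 to 500 bp to -0.12 ± 0.06 at 601 to 700 bp and 0.08 ± 0.05 at 801 to 900 bp, and it ended at 0.01 ± 0.08 at 901 to 1000 bp. The profile was not computed with TMM scaling, which shifts pairs 1, 2 and 3 by -0.42, 0.39 and 0.27 in every bin. Whether tagged values lie above untagged ones in a bin thus depends on the scaling. The order of the bins within a pair does not.

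The called promoters at 201 to 300 bp held 17.6%, 24.3% and 20.2% of the tagged reads of that bin and 2.87%, 3.91% and 3.39% of its untagged reads. Without them the bin had a log2 ratio of -0.09 ± 0.01, and all 10 bins had means below 0, from -0.19 ± 0.03 at 0 to 100 bp to -0.04 ± 0.05 at 301 to 400 bp. The removal took out promoters chosen for their tagged reads, so it lowers each bin by construction and does not show where the excess lay. Without only the 25 best-ranked promoters, the highest bin was that at 301 to 400 bp, at 0.01 ± 0.04.

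**Figure D3:**
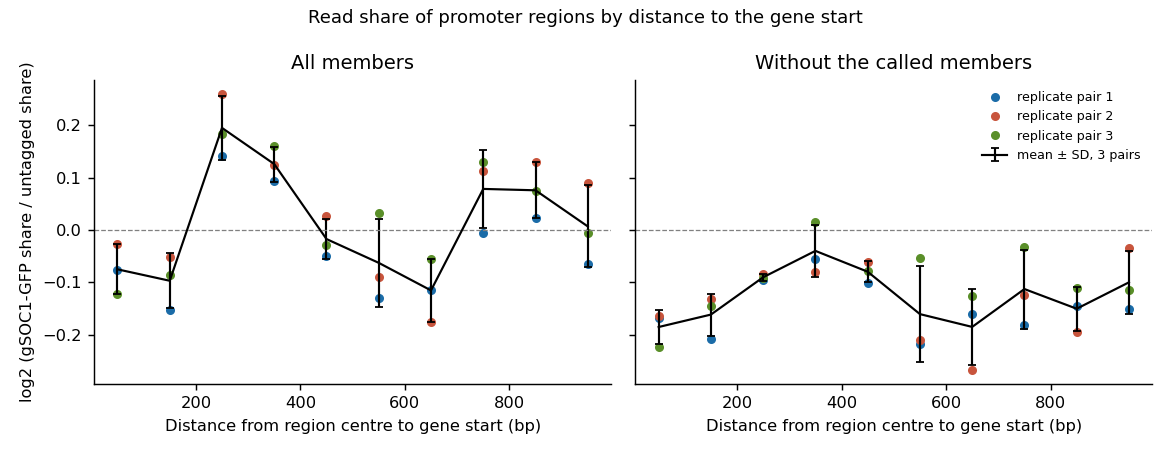
Log2 ratio of the tagged to the untagged read share (y axis) of promoter regions in 100 bp bins of distance to the gene start (x axis, bp); points are replicate pairs and the line the mean ± SD of 3 pairs. With all promoters (left) the bin at 201 to 300 bp was highest at 0.20, and without the 108 called promoters (right) all means lay below 0.

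Promoters up to 500 bp from the start did not stand apart from those at more than 500 and up to 1000 bp. Their log2 ratio of tagged to untagged share was -0.02 ± 0.04, beside -0.01 ± 0.05 for the farther ones (difference -0.01 ± 0.05; exact two-sided permutation p = 1, adjusted 1; lower in 1 of 3 pairs). This split joined the bins below and above the peak. A comparison chosen after the profile was seen, 0 to 200 bp against 201 to 400 bp, gave -0.26 ± 0.02 (exact two-sided permutation p = 0.1, the smallest possible). The width of the listed regions also changed with distance, from a median of 265 bp at 101 to 200 bp to 208 bp at 901 to 1000 bp, and its part in the profile was not tested. Just inside the limit of the set, 148 regions at 951 to 1000 bp held 2 called regions and had a log2 ratio of 0.06 ± 0.14. Just outside it, 161 distal regions in the next 50 bp also held 2, with a ratio of 0.00365 ± 0.0605.

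The best-ranked promoter was that of SOC1 itself (AT2G45660). The region lay on chromosome 2 between 18810951 and 18811322 (TAIR10), with its centre 89 bp before the start. It held 2018, 808 and 1038 tagged and 74, 5 and 18 untagged reads. All tagged libraries stood far above the untagged ones, at a log2 enrichment of 4.29 ± 0.74 (SD, n = 3 pairs; edgeR with the replicate block, adjusted p = 0.00937). In edgeR without the block SOC1 did not pass (unadjusted p = 0.106), and neither did any other promoter of the set. Reads from the SOC1 promoter of the transgene and from the endogenous locus cannot be told apart in these counts.

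The second-ranked promoter was that of ATG18C (AT2G40810), a member of the phosphoinositide-binding autophagy family ATG18, on chromosome 2 from 17032006 to 17032375. At 273 bp before the start it held 1530, 787 and 884 tagged against 27, 1 and 8 untagged reads. Its log2 enrichment of 5.64 ± 1.41 was above that of SOC1, although the SDs overlap (edgeR with the replicate block, adjusted p = 0.00077). In pairs 1, 2 and 3 it was 5.01, 7.26 and 4.66, against 4.00, 5.13 and 3.75 at SOC1. The value of pair 2 rests on 1 untagged read, and the difference between the promoters was not tested.

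Among the other genes of known role in the 25 best-ranked promoters, ECT6 (AT3G17330), of the YTH family of RNA methylation readers, held 629, 252 and 298 tagged and 8, 1 and 13 untagged reads at 129 bp (4.45 ± 1.77). GRP2B (AT2G21060), a glycine-rich protein with a cold shock domain, held 448, 142 and 182 against 8, 3 and 7 reads at 300 bp (3.58 ± 1.14). Both had higher scaled counts in every tagged than in every untagged library, and both passed edgeR with the replicate block (adjusted p = 0.00155 and 0.00382). TAP38 (AT4G27800), a phosphatase that acts on the light-harvesting antenna of chloroplasts, held 538, 211 and 199 tagged and 26, 2 and 2 untagged reads at 91 bp (4.14 ± 0.51). The end of another gene was close to some of these regions, 81 bp from the centre at ECT6 (AT3G17340) and 210 bp at TAP38 (AT4G27810). TZP (AT5G43630), a zinc knuckle protein of light signalling, held 214, 78 and 81 against 21, 0 and 3 reads at 751 bp. The 0 in untagged replicate 2 set much of its mean of 3.98 ± 2.48, and the log2 fold change of edgeR with the block was 3.01 (adjusted p = 0.0302).

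The transcription factor genes BZIP49 and CPL3 and 3 genes of metabolism were also among these 25. BZIP49 (AT3G56660), a bZIP factor, held 418, 244 and 160 tagged and 6, 3 and 4 untagged reads at 33 bp (4.12 ± 0.95). Its region reached over the start itself, as was so for 43 of the called promoters (39.8%) and 3533 of the whole set (41.3%). CPL3 is described next. CPL3 (AT4G01060), a single-repeat MYB factor of epidermal hair patterning, held 259, 113 and 77 against 14, 1 and 5 reads at 811 bp (3.20 ± 1.33). Both passed edgeR with the replicate block (adjusted p = 0.00107 and 0.0214). GDPD2 (AT5G41080), a glycerophosphodiester phosphodiesterase, held 427, 201 and 201 against 17, 2 and 8 reads at 898 bp (3.57 ± 0.95). CXE12 (AT3G48690), a carboxylesterase, held 259, 102 and 106 against 14, 1 and 5 reads at 134 bp (3.31 ± 1.02). KCR1 (AT1G67730), a reductase of very-long-chain fatty acid synthesis, held 225, 138 and 107 against 24, 1 and 8 reads at 75 bp (2.93 ± 1.62). Of these 3, KCR1 did not pass edgeR with the replicate block (adjusted p = 0.095).

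The other promoters among the 25, apart from SHP2 and AGL18 below, belonged to genes known here by identifier only. They were AT5G21280, AT1G63950, AT5G44590, AT5G59390, AT2G30600, AT1G10745, AT3G03456, AT5G52660, AT2G37950, AT5G16010, AT5G23610 and AT5G65910. The best-ranked of them, AT5G21280, held 875, 375 and 329 tagged and 15, 4 and 6 untagged reads at 228 bp (4.32 ± 0.68). The strongest of them by mean log2 enrichment was AT1G63950, with 735, 272 and 291 tagged and 2, 2 and 5 untagged reads at 302 bp (5.18 ± 1.66). The weakest was AT5G65910, at 185 bp, with 398, 73 and 116 tagged and 42, 3 and 12 untagged reads (2.01 ± 0.72). AT5G52660 was nearly level with it at 2.01 ± 0.24, and its untagged count of 83 in replicate 1 was the highest untagged count among the 25. These last 2 promoters, KCR1 and AT5G16010 were the 4 of the 25 that did not pass edgeR with the replicate block.

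Called promoters lay throughout the 1000 bp. The nearest, at AT2G30600, had its centre 4 bp before the start and held 458, 166 and 202 tagged and 24, 8 and 2 untagged reads (3.35 ± 1.12). The farthest, at AT2G19460, lay at 987 bp and held 178, 60 and 86 against 10, 1 and 3 reads (3.15 ± 0.45). Tagged libraries stood above untagged ones at both ends of the window, at log2 enrichments whose SDs overlap.

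**Figure D4:**
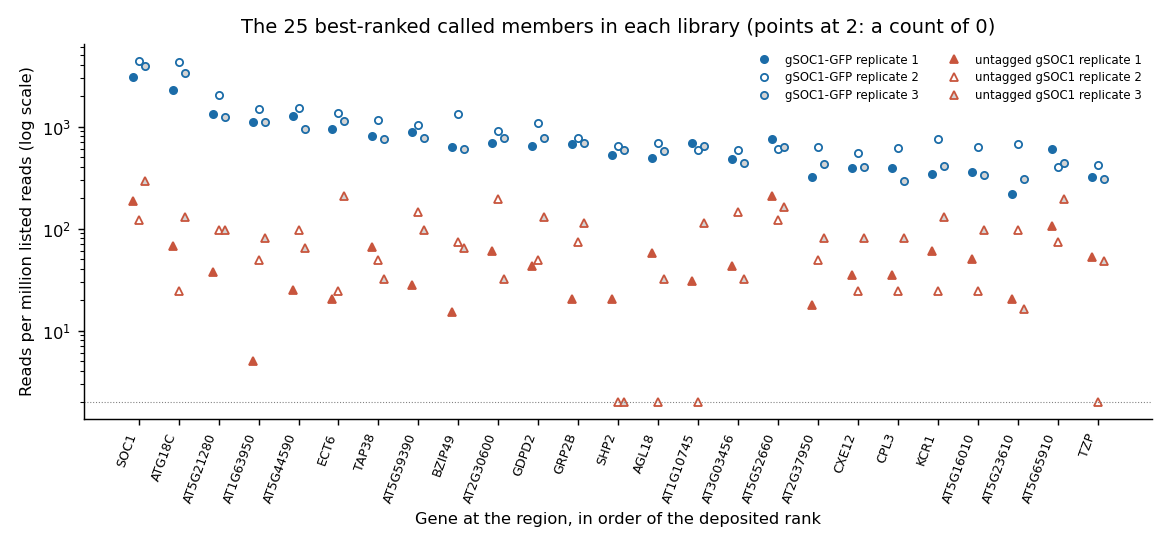
Reads scaled to column totals (y axis, reads per 1e6 listed reads, log scale) of the 25 best-ranked called promoters, named by gene and ordered by deposited rank, in each of the 6 libraries; blue circles are gSOC1-GFP, red triangles untagged gSOC1, and points at 2 mark a count of 0. The tagged libraries lay above the untagged ones at every promoter shown.

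Among genes of floral organ identity, 8 had a single-gene proximal promoter in the table and 4 of these were called, with a median log2 enrichment of 1.98 beside 0.20 for all 8551 promoters. Of all regions in the table, 1.12% were called. The list was drawn up with earlier results of these data known, so its count is a description. SHP2 (AT2G42830), a MADS gene of carpel and fruit, held 348, 119 and 155 tagged and 8, 0 and 0 untagged reads at 374 bp. Untagged replicates 2 and 3 had no read there, so its mean of 6.41 ± 1.68 rests on the prior count. The log2 fold change of edgeR with the block was 5.28 (adjusted p = 0.000229).

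SUP (AT3G23130), the SUPERMAN zinc finger factor that bounds the stamen whorl, held 176, 54 and 78 tagged and 6, 1 and 0 untagged reads at 956 bp (4.52 ± 1.58; edgeR with the block, adjusted p = 0.00152). It was among the most distant called promoters. AP3 (AT3G54340), the MADS gene of petals and stamens, held 179, 62 and 60 against 11, 5 and 5 reads at 146 bp (2.01 ± 0.96). TT16 (AT5G23260), a MADS gene of the seed coat, held 41, 17 and 25 against 3, 0 and 2 reads at 737 bp (2.89 ± 1.65). Tagged libraries were above untagged ones at both, but neither passed edgeR with the block (adjusted p = 0.286 and 0.215). The uncalled members were SEP1, SEP2, SEP3 and AGL6, between -0.29 and 1.96, and their pairs spread widely, with SDs from 0.85 to 1.70.

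Of 19 flowering repressor genes, 11 had a promoter in the set and 2 were called, beside 1.12% of all regions. The 11 promoters had a median log2 enrichment of 0.74. AGL18 (AT3G57390), a MADS repressor of flowering, held 325, 128 and 151 tagged and 23, 0 and 2 untagged reads at 86 bp. Its mean of 4.85 ± 2.39 is raised by the 0, and the edgeR log2 fold change with the block was 3.81 (adjusted p = 0.00341). AGL15 (AT5G13790), a MADS gene closely related to it, held 158, 67 and 70 against 9, 4 and 6 reads at 234 bp (2.16 ± 0.92; edgeR with the block, adjusted p = 0.194). The other 9 promoters ranged from -0.86 ± 0.94 at MAF5 to 2.55 ± 2.12 at RAV2, which is the gene also named TEM2.

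The floral integrator and activator list had 4 promoters in the set, of which SOC1 alone was called, beside 1.12% of all regions. The meristem identity gene AP1 held 46, 19 and 18 tagged and 16, 11 and 3 untagged reads at 118 bp (-0.05 ± 1.13). FD, the bZIP partner of FT, was at 1.78 ± 1.67 with 9, 3 and 7 against 6, 0 and 0 reads, too few to separate the groups. FUL, listed as AGL8, was at -0.29 ± 0.55.

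The photoperiod, light and clock list had 18 promoters of 15 genes, with a median of 0.29. Of these promoters 2 were called, beside 1.12% of all regions, and both lay at PHYA, the far-red photoreceptor gene (AT1G09570). At 518 bp PHYA held 91, 27 and 34 tagged and 11, 0 and 0 untagged reads, and at 92 bp it held 67, 28 and 32 against 9, 0 and 2. Because of the untagged zeros, the edgeR log2 fold changes with the block are the safer values, at 2.87 and 2.31 (adjusted p = 0.0671 and 0.277). No other gene of the set had a pair of called regions. The PHYA regions ran from 3100328 to 3100572 and from 3100760 to 3100992 on chromosome 1. The gap between them was shorter than the longest fragments, of 400 bp, and whether they are separate sites was not tested. The other phytochrome promoters ranged from -1.06 ± 0.81 at PHYB, the red-light photoreceptor gene, to 1.66 ± 1.69 at PHYD.

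No promoter was called in the remaining lists, beside 1.12% of all regions, a share at which lists of 8 to 15 promoters would hold less than 1 call each. These held 11 promoters of cold response genes (median 0.57), 11 of gibberellin genes (0.26), 15 of auxin genes (0.25), 9 of abscisic acid genes (0.49), 10 of shoot meristem and polarity genes (-0.13) and 8 of the SPL and miR156 module (0.24). All medians are mean log2 enrichments, beside 0.20 for all promoters of the set and 0.28 for all regions of the table. Within the cold list, DREB1A, which is also named CBF3 and activates cold-induced genes, held 41, 22 and 17 tagged and 10, 1 and 4 untagged reads at 224 bp (1.11 ± 1.07). WUS, the stem cell regulator of the shoot meristem, was at -0.40 ± 1.33 with 19, 4 and 4 against 6, 1 and 4 reads.

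**Figure D5:**
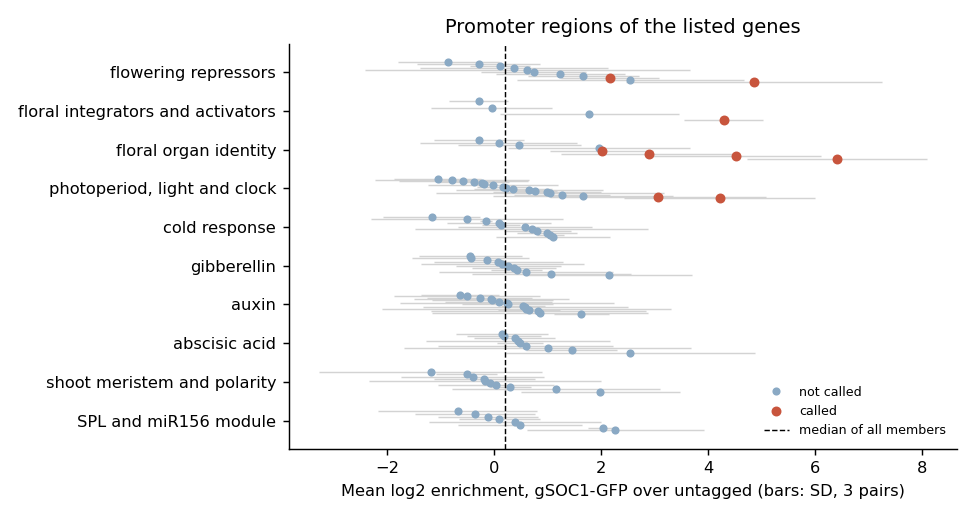
Mean log2 enrichment (x axis; bars, SD of 3 pairs) of each single-gene proximal promoter of the listed genes, by list (y axis); red points are called and blue points are not. The dashed line is the median of all 8551 promoters, 0.20; the 9 called points belong to SOC1, AGL18, AGL15, SHP2, SUP, AP3, TT16 and PHYA.

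The promoters belonged to 8174 genes, of which 403 had more than 1 region in the set. Called regions were found at 108 genes, since PHYA had a pair and 1 region was listed with a pair of genes. At 5 further genes with a called region the other region of the same promoter was not called. NAC014 had 103, 53 and 46 tagged and 19, 0 and 3 untagged reads at 225 bp, but 60, 6 and 6 against 38, 1 and 2 at 706 bp. SCL3, a GRAS-family gene of gibberellin signalling, had its called region at 887 bp (1.69 ± 0.19), and its region at 27 bp was at 0.13 ± 1.09. EMS1, a receptor kinase gene of anther development, likewise had its called region at the farther position, 831 bp (3.37 ± 1.36), against 1.44 ± 1.98 at 263 bp. These genes were picked after their values were seen.

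Nearly all of the genes encoded proteins, and 100 of 8105 promoters of protein-coding genes alone were called (1.23%, beside 1.12% of all regions). Of 42 promoters of microRNA genes 2 were called, MIR169a at 940 bp and MIR390a at 846 bp, which were named after their values were seen. MIR169a, whose product targets NF-YA transcripts, held 120, 46 and 39 tagged and 12, 2 and 4 untagged reads. MIR390a, whose product triggers the small RNAs that act on auxin response factors, held 46, 27 and 29 against 2, 1 and 3. None of 77 promoters of tRNA genes was called.

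The share of called promoters was also counted by the layout of the intergenic space, with no test. Where the other neighbour pointed its end toward the region, 77 of 5728 were called (1.34%, beside 1.12% of all regions). Where it pointed a start that lay more than 1000 and up to 3000 bp away, 19 of 1780 were called (1.07%), and with a start beyond 3000 bp 12 of 1043 (1.15%). The log2 ratios of read share were 0.01 ± 0.03, -0.11 ± 0.10 and -0.04 ± 0.07 for these groups. The gap between the neighbouring genes had a median of 1493 bp at called and 1524 bp at other promoters. At 22 called promoters (20.4%) and 1248 others (14.8%) the end of the other gene was nearer to the region than the start that defined it. The called regions were also longer, with a median of 336 bp against 239 bp, and how the authors set the length is not stated. By chromosome the called share ran from 0.791% on chromosome 4 to 1.42% on chromosome 3.

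The promoters with most untagged reads were chosen on these counts, and untagged replicate 1 held most of the listed untagged reads. AXR4 (AT1G54990), a gene of auxin response, held 295, 9 and 4 untagged and 250, 15 and 31 tagged reads at 453 bp. APY1 (AT3G04080), an apyrase gene, held 268, 6 and 6 untagged and 280, 21 and 26 tagged reads at 578 bp, and AT1G78790 held 267, 10 and 7 against 291, 44 and 32 at 385 bp. Their high counts in untagged replicate 1 follow from this choice. Their tagged counts, which were not used for the choice, were also highest in replicate 1, the deepest tagged library. At all 3 promoters they were higher there by more than the difference in depth, and why was not tested. The log2 enrichments were -0.51 ± 1.18, -0.33 ± 0.35 and -0.18 ± 0.38, and none was called. A choice on high untagged counts lowers such values by construction.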

How the data were processed

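The authors deposited 1 table of 24032 regions with 6 columns of raw read counts, 1 per library, not normalized, per the column definitions deposited with it. Reads were placed on TAIR10, per the submitters' processing notes. Not given in the sources used here: aligner, region caller, filters on reads, and how a region's length was set. The authors' p-value columns hold a Benjamini-Hochberg FDR per replicate, and the deposited log2 column and the rank score order the regions by the rank product of the 3 FDRs, per the column definitions. Other deposited columns give the distance from a region's centre to the closest gene on each side. Ends were computed from start and length, and starts are printed as deposited, with no stated count from 0 or 1.

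Groups and replicate numbers came from the sample titles. Counts were scaled to column totals; SDs are over 3 replicate pairs. All regions were fitted with edgeR 4.0.16 in R 4.3.3 with TMM scaling, without a block in the main fit; DESeq2 1.42.0, the replicate block, column totals, a filter on a mean count of 10 and leaving out each replicate were alternatives. The edgeR fit was tested on simulated data. Deviations from the group means of same-numbered libraries correlated at 0.498, 0.123 and 0.139, all over the bound of 0.1, and the libraries were treated as pairs by title number. Unmatched libraries reached a like level, 0.131 for tagged replicate 3 with untagged replicate 2, so that only replicate 1 stood out. Exact permutation tests used SciPy 1.17.1. TMM scaling in place of column totals shifts the log2 ratios of replicates 1, 2 and 3 by -0.42, 0.39 and 0.27, and their mean by 0.08.

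Named promoters were the 25 called ones of best rank, called ones of listed genes, the nearest and farthest called ones and the 3 with most untagged reads. The regions and gene lists were chosen with earlier results of these data known. Symbols came from the RefSeq gene table (TAIR10.1), which served for names and types of genes and held 8097 of the 8174 genes (99.1%). No sequence was analysed here.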

Additional observations from a re-analysis of the deposited data

How the results depend on the processing

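Unless a reason is given, why a value changed was not tested. Called promoters numbered 76 and 144 at an FDR of 0.01 and 0.1. Requiring only a pair of replicates, they numbered between 116 (without replicate 1) and 195 (without replicate 3), with 168 without replicate 2. Fewer conditions are asked there by construction. The counts over all regions at these settings are not given here. edgeR called 0 promoters in the unblocked fit, beside 0 of all regions, and 33 with the replicate block, beside 91. It called 6 with library totals (beside 18) and 75 with block and library totals (beside 211). With the filter, which tests fewer regions, it called 34 (beside 85). DESeq2 called 35, beside 94. Leave-one-out fits called 0 to 35 promoters unblocked, where the 35 came without replicate 1, beside 86 of all regions. With the block they called 32, 40 and 21 without replicates 1, 2 and 3, beside 71, 119 and 69 of all regions. The log2 ratio of the whole set, -0.02, became 0.060 with TMM sizes (SD 0.47), 0.33 as a mean over regions with a prior count and -0.15 without called regions (-0.042 to -0.0026 leaving out each replicate). Near against far promoters went from -0.01 to -0.10 as a mean over regions and to -0.26 for 0 to 200 against 201 to 400 bp (-0.03 to 0.02 leaving out each replicate). The difference from divergent regions, 0.10, was 0.051 without called regions (0.07 to 0.12 leaving out each replicate). The difference from distal regions, -0.09, was -0.14 with the filter, -0.11 as a mean over regions and -0.062 without called regions (-0.093 to -0.083 leaving out each replicate). The highest bin of the profile, 0.20 at 201 to 300 bp, was 0.27 with the filter. It was -0.040 at 301 to 400 bp without called regions and 0.0094 without the 25 best-ranked (0.16 to 0.22 leaving out each replicate). The replicate block for the 4 comparisons of read share, a permutation of signs within pairs, kept the values and gave exact p from 0.25, the smallest possible, to 1. The comparison by CArG box was not run, because it needs sequence. Depth limits single regions most in untagged replicates 2 and 3.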

Other observations

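Several listed genes had a promoter past the authors' FDR in 2 of the 3 replicates, which were picked after their values were seen and were not called. At SNZ, an AP2-type flowering repressor, the region 871 bp before the start held 112, 25 and 42 tagged and 12, 4 and 2 untagged reads (log2 enrichment 1.67 ± 1.04, SD, n = 3 pairs). TEM1, which represses FT, held 63, 20 and 36 against 9, 5 and 2 reads at 785 bp (1.24 ± 1.21). Its log2 enrichment in replicate 2 was -0.16. RAV2 (TEM2), which also represses FT, held 60, 19 and 14 against 7, 0 and 2 reads at 127 bp (2.55 ± 2.12). GA3, of gibberellin synthesis, held 154, 45 and 29 against 13, 6 and 8 reads at 44 bp (1.07 ± 1.48). Its log2 enrichment in replicate 3 was -0.22. PYL5, an abscisic acid receptor gene, held 48, 17 and 34 against 17, 1 and 0 reads at 717 bp (2.55 ± 2.32). From the cold response list, DREB1A and KIN2 also passed in 2 replicates. KIN2 held 40, 19 and 33 tagged against 13, 2 and 3 untagged reads at 184 bp (1.05 ± 0.25). None of these promoters passed edgeR with the replicate block after adjustment. Past the FDR in at least 2 replicates lay 3.08% of the promoters, beside 2.62% of all regions.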
